A study of Homo sapiens with 18 samples.

Results

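The genes described here are 35 genes of the G2/M transition and mitosis, chosen by name and read by Ensembl identifier from gene counts of H1975 and HCC827. Both are established human lung adenocarcinoma cell lines with activating EGFR mutations, and each is a single line grown in culture, so a difference between them is a difference between 2 tumour lines. All 35 were listed in every file, among 60617 genes in the short-read files and 58676 in the long-read files. Each line (NCI-H1975 and HCC827, untreated, grown in RPMI medium with fetal calf serum to near confluence and frozen as dissociated cells) gave 3 RNA samples. Each sample was sequenced on 3 platforms, which makes 18 libraries in 6 groups of 3: H1975 and HCC827 on Illumina (short reads, 3.75 ng of mRNA, 11 PCR cycles), on Oxford Nanopore (ONT; long cDNA reads, 1.5 ng, 14 cycles) and on PacBio (Iso-Seq long reads, total RNA with size selection, 12 cycles). The labels call the samples independent without saying that they came from separate cultures, so p-values measure the spread between these samples.

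A cell enters mitosis when CDK1 bound to a B-type cyclin is switched on, with PLK1 and the Aurora kinases acting beside it. Kinetochores, built on centromeres that carry the histone variant CENPA, then attach chromosomes to spindle microtubules, while the spindle checkpoint holds back the anaphase-promoting complex (APC/C) and its activator CDC20. Once the checkpoint is satisfied, APC/C with CDC20 marks securin (PTTG1) and cyclin B for destruction, and separase (ESPL1) cuts the cohesin that joins sister chromatids. Most of these genes are transcribed in G2 and M phase, and their promoters are known for 2 short elements, the cell cycle genes homology region (CHR) and the CCAAT box. In bulk RNA, fewer dividing cells and less RNA per dividing cell cannot be told apart.

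Gene totals were 33362018 to 40200473 counts in Illumina libraries, with 10020699 in HCC827 replicate 2, and 81467393 to 116497461 in ONT libraries, but 37795 to 54339 in PacBio libraries. All 29 Illumina calls below were the same without the shallow HCC827 replicate 2. Added spike-in RNA took 1.37% to 1.82% of H1975 Illumina counts and 1.88% to 3.71% of HCC827 counts. On Illumina 9 lung epithelial markers summed to 4020 to 4319 CPM (counts scaled to library size) in H1975 and 11590 to 18120 in HCC827. KRT18, KRT19 and NAPSA were among them. All 9 were higher in HCC827 there (8 of 9 with total count scaling, described below). The sum does not show that each marker was well expressed in H1975. NAPSA had a log2 fold (HCC827 over H1975) of 6.485 on Illumina and 6.572 on ONT. In the shallow PacBio libraries NAPSA and NKX2-1 were at 0 in all of H1975. The 5 fibroblast markers summed to 65.8 to 78.3 CPM in H1975 and 0.271 to 0.518 in HCC827, the 5 hematopoietic markers to 5.92 to 6.71 and 0.933 to 1.24, and the 3 endothelial markers to 4.09 to 4.88 and 3.15 to 3.66. Of the fibroblast markers 2 were tested on each platform, both lower in HCC827 on Illumina, and 1 higher and 1 lower on ONT. On ONT the 5 summed to 6.44 to 7.08 CPM in H1975 and 1.49 to 2.40 in HCC827. CD3E was at 0 in all HCC827 Illumina libraries. The part of these marker differences in the results was not tested.

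The promoters of some mitotic genes are shown first, so that the elements they hold or lack can be read beside how the genes differ between the lines. RefSeq (GRCh38.p14) promoter windows, from 250 bases before to 50 after a start, were matched by symbol for 29 of the 35 genes. AURKA, BUB3, TTK, BIRC5, TPX2 and UBE2C were not matched. The stretches below are the 150 bases just before the GENCODE start, 5′ to 3′ on the gene's strand, and capitals mark a CHR (TTTGAA or TTCGAA) or a CCAAT box (CCAAT), each searched on both strands. CDC20 (chr1:43358831-43358980, plus strand) and KIF2C (chr1:44739668-44739817, plus) had the largest folds between the lines. PTTG1 (chr5:160421705-160421854, plus) and TOP2A (chr17:40417897-40418046, minus) were also higher in HCC827. MKI67 (chr10:128126424-128126573, minus) and CENPF (chr1:214603035-214603184, plus) were lower on Illumina.
CDC20: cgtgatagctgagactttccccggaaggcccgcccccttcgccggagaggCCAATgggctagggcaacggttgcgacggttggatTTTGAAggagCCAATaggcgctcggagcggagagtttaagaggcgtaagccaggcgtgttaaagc
KIF2C: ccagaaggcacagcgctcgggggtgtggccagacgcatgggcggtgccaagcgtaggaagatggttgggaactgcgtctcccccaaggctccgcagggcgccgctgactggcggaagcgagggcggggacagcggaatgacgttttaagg
PTTG1: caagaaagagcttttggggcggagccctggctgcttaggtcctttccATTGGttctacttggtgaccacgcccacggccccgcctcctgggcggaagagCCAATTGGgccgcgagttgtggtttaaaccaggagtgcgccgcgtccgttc
TOP2A: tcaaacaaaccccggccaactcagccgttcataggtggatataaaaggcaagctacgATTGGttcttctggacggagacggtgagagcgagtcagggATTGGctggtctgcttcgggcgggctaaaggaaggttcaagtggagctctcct
MKI67: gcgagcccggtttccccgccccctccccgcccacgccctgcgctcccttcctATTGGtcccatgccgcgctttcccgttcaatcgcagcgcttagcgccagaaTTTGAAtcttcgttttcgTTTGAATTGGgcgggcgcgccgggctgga
CENPF: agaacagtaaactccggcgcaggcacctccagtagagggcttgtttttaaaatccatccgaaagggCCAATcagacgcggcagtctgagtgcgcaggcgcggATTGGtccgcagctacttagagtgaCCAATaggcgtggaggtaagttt

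In MKI67 a CHR and a CCAAT box on the opposite strand overlap, and in PTTG1 2 CCAAT boxes on opposite strands overlap. Some elements of the windows lie outside the stretches shown and are not marked. The window of TOP2A held a CHR at -194 and at -151 from the RefSeq start, the latter cut by the edge of the stretch. That of CENPF held a CHR at 41, after the start, and that of CDC20 another CHR at -178. Over the whole windows, 21 of 29 members (72.4%) held a CHR, against 19.5% of 27305 genes in the same table. A CCAAT box stood in 24 of 29 (82.8%), against 39.7%, and both elements in 18 of 29 (62.1%), against 7.85%. The window of CDC20 held both elements, while those of 2 members, KIF2C and CENPE, held neither. Of members called higher in HCC827 on both Illumina and ONT, 6 of the 12 with a window held a CHR and 11 held a CCAAT box. Of members called lower on both, 6 of 7 held a CHR and 4 of 7 a CCAAT box, and of the others 9 of 10 held each. A match describes letters in a window and no more. Other spellings of either element were not searched. A gene counted here without a CHR or CCAAT box may therefore hold another form of it, and the shares of the groups depend on this definition.

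Counts were compared between the lines within each platform, as HCC827 over H1975, with edgeR's quasi-likelihood test over all genes and trimmed mean of M values (TMM) scaling. A gene is called higher or lower at a Benjamini-Hochberg adjusted p below 0.05. On Illumina 29 of the 35 mitotic genes were called, 19 higher and 10 lower in HCC827. The lines differed at most genes, for 74.1% of all genes tested were called, 36.1% higher and 38% lower, so a count of this size is not particular to the members. On ONT 25 were called, 16 higher and 9 lower, where 62.7% of all genes were called, 31.1% higher and 31.6% lower. The members' median log2 fold was 0.46 on Illumina (range -1.11 to 2.95) and 0.27 on ONT (-1.16 to 2.73), beside all-gene medians of -0.04 and -0.02. The 3 libraries of one line lay wholly above or below those of the other for 30 members on Illumina and 27 on ONT. The same held for 76.9% of all genes tested on Illumina and 69.1% on ONT, so these counts are not particular to the members either. The counts by role below cover few genes each and are to be read beside these shares.

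The direction of the smaller differences depended on how the libraries were scaled. With scaling by total count alone, an alternative chosen after seeing the data, the median log2 fold of all genes moved by -0.35 on Illumina and -0.55 on ONT. The share of called genes that were higher then fell from 48.8% to 33.7% on Illumina and from 49.5% to 23.9% on ONT. Among the members it gave 14 higher and 14 lower on Illumina and 7 higher and 16 lower on ONT. Folds below are therefore relative to the typical gene under TMM scaling, and those that change under total count scaling are named. CDC20, AURKB, KIF2C, TOP2A, TPX2, UBE2C and PTTG1 were called higher, and BUB3, CENPA, CENPE, KIF11, KIF23, MKI67, NUF2 and NDC80 lower, on both platforms under both scalings. As a share of all gene counts, the members together took 0.189% to 0.224% in H1975 and 0.218% to 0.252% in HCC827 on Illumina, ranges that overlap, and 0.0733% to 0.081% and 0.0754% to 0.0902% on ONT. On the TMM scale their summed level did not overlap, with 1676 to 1996 CPM in H1975 and 2496 to 2942 CPM in HCC827 on Illumina, and 600 to 673 CPM and 947 to 1013 CPM on ONT.

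**Figure D1:**
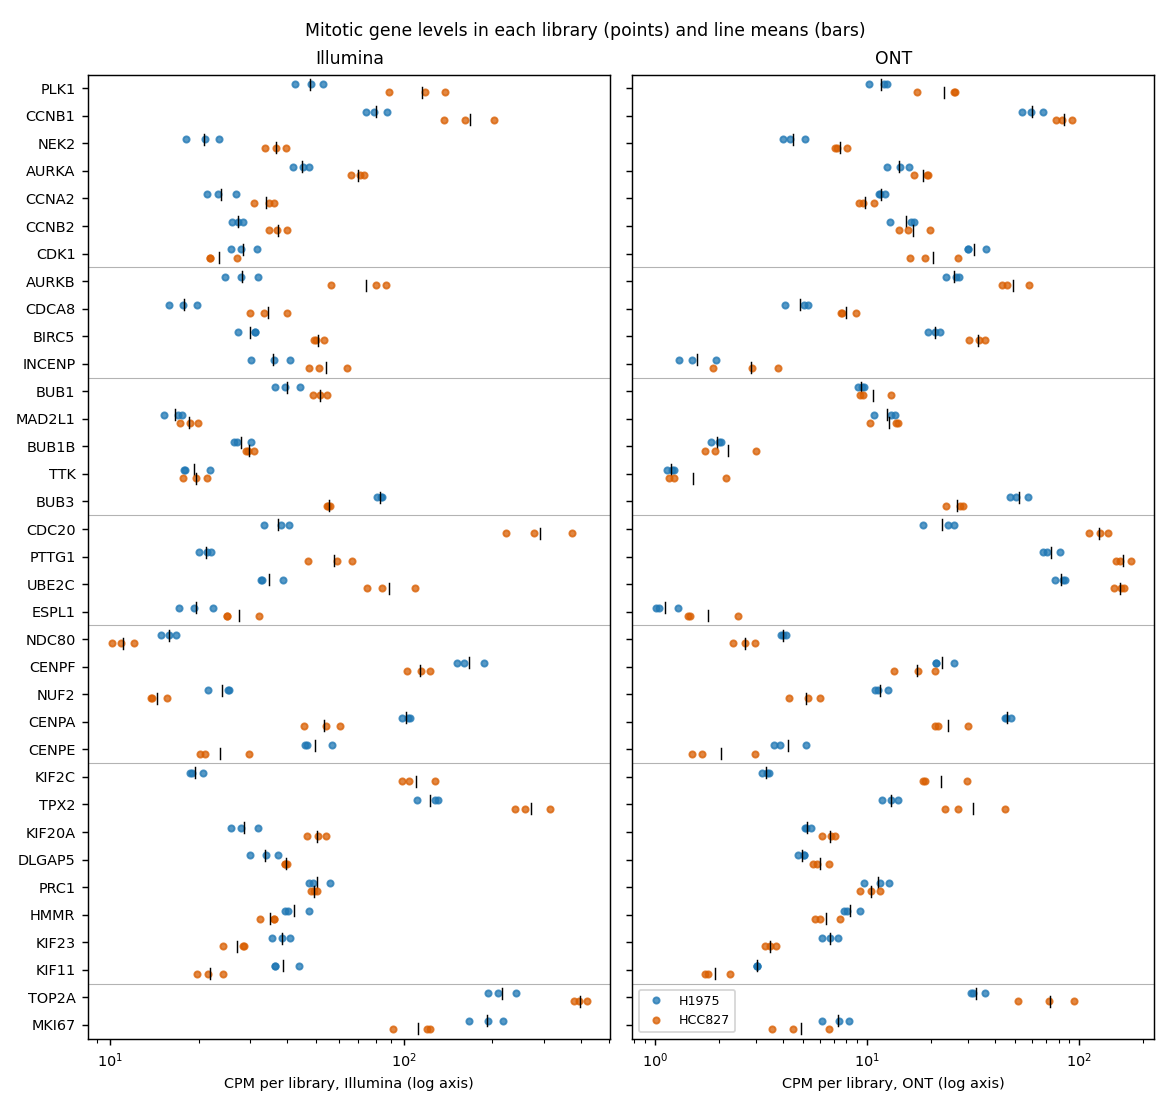
CPM of each mitotic gene (rows, grouped by role with grey lines between groups) in each library, on Illumina (left) and ONT (right), on log axes. Points are the 3 libraries of each line and black bars the line means. The CDC20 and KIF2C points of HCC827 lie well to the right of those of H1975 on both platforms, while all 5 centromere and kinetochore genes lie to the left on Illumina.

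Of the anaphase machinery, 4 of 4 members were called higher in HCC827 on each platform (3 of 4 on each with total count scaling, where ESPL1 was not called). CDC20, the APC/C activator that starts anaphase (ENSG00000117399; GRCh38 chromosome 1, 43358981 to 43363203), had 40.5, 38.1 and 33.4 CPM in H1975 replicates 1 to 3 and 222, 372 and 277 CPM in HCC827 on Illumina. On ONT it had 24.0, 25.7 and 18.4 CPM in H1975 and 111, 125 and 136 CPM in HCC827. Every HCC827 library was far above every H1975 library. The log2 fold was 2.96 ± 0.16 (standard error) on Illumina, or 7.75-fold (adjusted p = 1.08e-09), and 2.45 ± 0.16 on ONT, or 5.47-fold (adjusted p = 6.07e-07). The pseudogene CDC20P1 had 14% of the counts of CDC20 on Illumina and 14.9% on ONT, so reads of CDC20 may be split between them.

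PTTG1, securin, the separase inhibitor that APC/C destroys (chromosome 5, 160421855 to 160428739), had 22.0, 21.4 and 20 CPM in H1975 and 47.2, 66.4 and 59.4 CPM in HCC827 on Illumina. UBE2C, the ubiquitin-conjugating enzyme of the APC/C (chromosome 20, 45812576 to 45816957), had 38.6, 32.8 and 32.7 CPM against 74.6, 109 and 83.9 CPM. Neither gene's lines overlapped. The log2 folds were 1.44 ± 0.12 for PTTG1 (adjusted p = 7.83e-08) and 1.35 ± 0.13 for UBE2C (adjusted p = 3.80e-07), and ONT gave 1.13 ± 0.13 and 0.91 ± 0.12. ESPL1, separase (chromosome 12, 53268299 to 53293638), had 22.4, 17.1 and 19.3 CPM against 25.1, 32.2 and 24.9 CPM. Its log2 fold was 0.46 ± 0.12 on Illumina (adjusted p = 0.00403) and 0.68 ± 0.24 on ONT (adjusted p = 0.0295), but 0.11 and 0.15 with total count scaling (adjusted p = 0.438 and 0.663). Its ONT call was lost without H1975 replicate 2 or 3 (adjusted p = 0.102 and 0.0987) and without HCC827 replicate 2 (0.0665).

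Of the chromosomal passenger complex, which corrects faulty attachments and then directs cytokinesis, 4 of 4 members were called higher on both platforms with TMM scaling. With total count scaling 3 of 4 were called on Illumina, without INCENP, and AURKB alone on ONT, where BIRC5 had 0.12, CDCA8 0.19 and INCENP 0.32. AURKB, its kinase (chromosome 17, 8204733 to 8210600), had 32.0, 27.9 and 24.6 CPM in H1975 and 56.2, 86.7 and 80.6 CPM in HCC827 on Illumina. The HCC827 libraries were all above the H1975 libraries, but they differed among themselves, with replicate 1 the lowest. The log2 fold was 1.39 ± 0.15 (adjusted p = 9.49e-07) on Illumina and 0.93 ± 0.15 (adjusted p = 0.000312) on ONT. BIRC5, survivin, which brings the complex to the centromere, had 31.1, 31.2 and 27.2 CPM against 50.1, 53.5 and 49.5 CPM, a log2 fold of 0.77 ± 0.10 on Illumina and 0.68 ± 0.14 on ONT. CDCA8 (borealin) had log2 folds of 0.93 ± 0.12 and 0.73 ± 0.16, and the scaffold INCENP 0.58 ± 0.13 and 0.85 ± 0.26. The ONT call of INCENP was lost without H1975 replicate 2 or 3 (adjusted p = 0.052 and 0.0641).

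Of the 7 entry kinases and cyclins, 6 were higher and none lower on Illumina, and 4 were higher and 1 lower on ONT. These counts depended on the scaling, since total count scaling gave 4 higher and 1 lower on Illumina and 0 higher and 3 lower on ONT. PLK1, the polo kinase of mitotic entry (chromosome 16, 23677656 to 23690367), had 53.2, 48.3 and 42.4 CPM in H1975 and 89.2, 138 and 118 CPM in HCC827 on Illumina. The lines did not overlap, and the log2 fold was 1.26 ± 0.14 (adjusted p = 1.82e-06) on Illumina and 0.99 ± 0.18 (adjusted p = 0.000715) on ONT. PLK1 shares exon bases with ERN2 on the opposite strand. ERN2 had 3422 ONT counts in H1975 and 5301 in HCC827, beside 3603 and 5609 of PLK1, so the ONT value of PLK1 is uncertain. With total count scaling PLK1 stayed called on Illumina (0.89) and was not called on ONT (0.44, adjusted p = 0.0757). CCNB1, cyclin B1, had 87.5, 79.1 and 74.5 CPM against 137, 203 and 162 CPM on Illumina. Its log2 fold was 1.05 ± 0.13 on Illumina and 0.49 ± 0.14 on ONT (adjusted p = 0.00981), and the ONT value turned to -0.07 with total count scaling (adjusted p = 0.656). Its ONT call was also lost without H1975 replicate 3 (adjusted p = 0.0745).

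NEK2, a centrosome kinase, had log2 folds of 0.82 ± 0.11 and 0.73 ± 0.15, and its ONT call was lost with total count scaling (0.19, adjusted p = 0.367). AURKA, the centrosomal Aurora kinase, had 0.64 ± 0.09 and 0.38 ± 0.15 (ONT adjusted p = 0.0446). The ONT call of AURKA was lost without H1975 replicate 1, 2 or 3 (adjusted p = 0.057, 0.122 and 0.226) and without HCC827 replicate 1 or 3 (0.0972 and 0.0754). It was also lost with DESeq2 (0.0532) and without the low count filter (0.0962), and total count scaling gave -0.18 (adjusted p = 0.24). CCNB2, cyclin B2, was higher on Illumina (0.46 ± 0.09) and had 0.11 ± 0.17 on ONT (adjusted p = 0.588). Its Illumina call was lost with total count scaling (0.11, adjusted p = 0.355) and it was called lower on ONT (-0.45, adjusted p = 0.0253). CDK1 itself, the kinase that the B cyclins activate, went the other way. It had 31.7, 27.8 and 25.7 CPM in H1975 and 21.8, 21.9 and 26.9 CPM in HCC827 on Illumina, where the lines overlapped (-0.26 ± 0.11, adjusted p = 0.0515). It was called lower on Illumina without the low count filter (adjusted p = 0.0397), without H1975 replicate 3 (0.0373) or HCC827 replicate 3 (0.0088) and with total count scaling (-0.62, adjusted p = 0.000175). On ONT its 36.4, 30.0 and 29.9 CPM stood above 18.8, 15.9 and 26.8 CPM, a log2 fold of -0.65 ± 0.19 (adjusted p = 0.0132). That call was lost without H1975 replicate 1 (adjusted p = 0.0628) and without HCC827 replicate 1 (adjusted p = 0.0619).

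CCNA2, cyclin A2, was the 1 member whose fold had opposite signs on the deep platforms. Illumina gave 26.9, 21.3 and 23.3 CPM in H1975 and 34.8, 30.8 and 36.2 CPM in HCC827, with all HCC827 libraries higher (0.52 ± 0.11, adjusted p = 0.000571). ONT gave 11.5, 12.2 and 11.4 CPM in H1975 and 9.55, 9.16 and 10.8 CPM in HCC827, with all HCC827 libraries lower (-0.25 ± 0.14, adjusted p = 0.13). Total count scaling ended its Illumina call (0.17, adjusted p = 0.20) and it was called lower on ONT (-0.81, adjusted p = 0.000448). CCNA2 shares 254 exon bases with EXOSC9 on the opposite strand, which makes its counts uncertain where strand was not used.

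The centromere and kinetochore genes ran opposite to the anaphase genes. All 5 were lower in HCC827 on Illumina and 4 of 5 on ONT, and all 5 were lower on both platforms with total count scaling. CENPE, the kinetochore motor that moves chromosomes to the spindle equator (chromosome 4, 103105349 to 103198445), had 56.7, 46.8 and 46.1 CPM in H1975 and 20.2, 29.7 and 21.1 CPM in HCC827 on Illumina. On ONT it had 5.18, 3.64 and 3.90 CPM against 1.67, 2.97 and 1.50 CPM. The lines did not overlap on either platform, and the log2 fold was -1.11 ± 0.14 (adjusted p = 4.64e-06) on Illumina and -1.05 ± 0.26 (adjusted p = 0.0046) on ONT. NUF2, a subunit of the microtubule-binding NDC80 complex (chromosome 1, 163266576 to 163355764), had 25.1, 25.3 and 21.6 CPM against 13.8, 13.9 and 15.6 CPM, a log2 fold of -0.73 ± 0.11 on Illumina and -1.16 ± 0.16 on ONT. NDC80, its partner in that complex, had -0.50 ± 0.11 and -0.60 ± 0.16.

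CENPF, a large kinetochore protein, had 188, 160 and 151 CPM in H1975 and 114, 123 and 103 CPM in HCC827 on Illumina, with no overlap (-0.56 ± 0.11, adjusted p = 0.000332). On ONT its log2 fold was -0.39 ± 0.18 (adjusted p = 0.0741), and it was called there with total count scaling (-0.93, adjusted p = 0.00373), without the low count filter (0.0446) and without HCC827 replicate 2 (0.0055). CENPA, the centromeric histone (chromosome 2, 26764289 to 26801067), had 98.3, 105 and 103 CPM against 60.7, 54.2 and 45.5 CPM on Illumina, a log2 fold of -0.93 ± 0.11, and -0.92 ± 0.16 on ONT. It shares 138 exon bases with SLC35F6 on the same strand, whose Illumina counts were 10076 in H1975 and 2886 in HCC827 (11392 and 4520 on ONT), so the fold of CENPA is uncertain.

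Of the 5 spindle checkpoint genes, 1 was higher and 1 lower on Illumina, and 0 were higher and 1 lower on ONT, beside all-gene shares of 74.1% and 62.7% called. With total count scaling none was higher and 3 were lower on each platform. BUB3, a checkpoint adaptor that is lower on both platforms (chromosome 10, 123154402 to 123170467), had 84.3, 83.6 and 81.1 CPM in H1975 and 54.9, 56.0 and 55.4 CPM in HCC827 on Illumina. Its log2 fold was -0.58 ± 0.09 (adjusted p = 2.74e-05) on Illumina and -0.97 ± 0.14 (adjusted p = 0.000144) on ONT. BUB1, the kinase that recruits other checkpoint proteins, had 0.37 ± 0.10 on Illumina (adjusted p = 0.00356) and 0.18 ± 0.16 on ONT. With total count scaling its Illumina call was lost (0.02, adjusted p = 0.86) and it was called lower on ONT (-0.39, adjusted p = 0.0435). BUB1B (BubR1), MAD2L1 (the MAD2 inhibitor of CDC20) and the kinase TTK had Illumina log2 folds of 0.10 ± 0.09, 0.17 ± 0.10 and 0.02 ± 0.11, with adjusted p of 0.344, 0.137 and 0.901. These do not show that the lines are alike, and all 3 had negative values with total count scaling on both platforms. BUB1B shares exon bases with PAK6 and BUB1B-PAK6 on the same strand. They had 139% and 141% of its ONT counts, so the value of BUB1B is uncertain.

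Motors and spindle proteins divided, with 3 of 8 higher and 3 lower on Illumina and 3 higher and 2 lower on ONT (3 higher and 4 lower, and 2 higher and 4 lower, with total count scaling). KIF2C, a kinesin that takes microtubules apart at the centromere (ENSG00000142945; chromosome 1, 44739818 to 44767767), had 20.8, 18.6 and 19.0 CPM in H1975 and 98.2, 127 and 104 CPM in HCC827 on Illumina. On ONT it had 3.46, 3.38 and 3.22 CPM against 18.8, 29.7 and 18.3 CPM. All HCC827 libraries were above all H1975 libraries, and the log2 fold was 2.49 ± 0.11 on Illumina, or 5.62-fold (adjusted p = 1.61e-10), and 2.73 ± 0.21 on ONT, or 6.64-fold (adjusted p = 1.37e-06). An opposite-strand RNA, ENSG00000225721, shares 175 exon bases with KIF2C and had 565176 ONT counts (171740 in H1975 and 393436 in HCC827) beside 6598 of KIF2C, so the ONT value of KIF2C is uncertain where strand was not used. TPX2, which activates AURKA on the spindle (chromosome 20, 31739271 to 31801805), had 131, 128 and 111 CPM against 257, 313 and 239 CPM, a log2 fold of 1.13 ± 0.12 on Illumina and 1.28 ± 0.23 on ONT.

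KIF11, the motor that pushes spindle poles apart (chromosome 10, 92574105 to 92655395), was lower in HCC827. It had 43.8, 36.4 and 36.5 CPM in H1975 and 21.5, 19.8 and 24.2 CPM in HCC827 on Illumina, and its log2 fold was -0.82 ± 0.11 there and -0.66 ± 0.17 on ONT. The cytokinesis motors went different ways. KIF23 was lower (-0.49 ± 0.10 and -0.93 ± 0.15), whereas KIF20A was higher on Illumina (0.82 ± 0.10) and barely passed on ONT (0.35 ± 0.14, adjusted p = 0.0489), with -0.20 on ONT under total count scaling. Its ONT call was lost without H1975 replicate 1, 2 or 3 (adjusted p = 0.112, 0.148 and 0.175), without HCC827 replicate 3 (0.0759), with DESeq2 (0.0677) and without the low count filter (0.139). KIF20A shares exon bases with BRD8 and CDC23 on the opposite strand, which had 152% and 142% of its ONT counts. KIF23 shares some with KIF23-AS1, also on the opposite strand, which had 69.9% of its ONT counts. The values of KIF20A and KIF23 are uncertain where strand was not used. HMMR, a spindle assembly protein, had -0.28 ± 0.10 (adjusted p = 0.023) and -0.39 ± 0.16 (adjusted p = 0.0524), and its Illumina call was lost without H1975 replicate 1 (-0.20, adjusted p = 0.158). On ONT it was called lower with total count scaling (-0.93, adjusted p = 0.00205), with limma-voom (0.0455) and without HCC827 replicate 2 (0.00475). DLGAP5, a microtubule stabiliser, had 0.23 ± 0.10 (adjusted p = 0.0509) and 0.27 ± 0.15. It was called higher on Illumina with limma-voom (0.0429) and without H1975 replicate 1 (0.0354) or HCC827 replicate 1 (0.0392), and had -0.12 there with total count scaling. PRC1, the midzone bundler, had -0.04 ± 0.09 and -0.12 ± 0.16. PRC1 was called lower on both platforms with total count scaling (-0.40, adjusted p = 0.00219, and -0.67, adjusted p = 0.00642). PRC1 shares 57.6% of its exon length with a same-strand gene, ENSG00000284946, and its value is uncertain.

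TOP2A and MKI67, both widely used as proliferation markers, moved in opposite directions. TOP2A, the topoisomerase that untangles chromosomes (chromosome 17, 40388525 to 40417896), had 241, 210 and 193 CPM in H1975 and 418, 395 and 379 CPM in HCC827 on Illumina, and 35.9, 31.0 and 31.5 CPM against 71.9, 94.4 and 51.3 CPM on ONT. MKI67, the Ki-67 protein that coats mitotic chromosomes (chromosome 10, 128096659 to 128126423), had 218, 193 and 166 CPM against 120, 122 and 91.5 CPM on Illumina, and 8.26, 7.41 and 6.17 CPM against 4.50, 6.61 and 3.58 CPM on ONT. The lines of each gene did not overlap on Illumina, and on ONT those of MKI67 did. The log2 fold of TOP2A was 0.89 ± 0.11 (adjusted p = 3.39e-06) and 1.15 ± 0.20 (adjusted p = 0.000531). That of MKI67 was -0.79 ± 0.13 (adjusted p = 6.75e-05) and -0.57 ± 0.22 (adjusted p = 0.0426), and its ONT call was lost without H1975 replicate 1 or 2 (adjusted p = 0.143 and 0.0997) and without HCC827 replicate 1 or 3 (0.139 and 0.125).

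Illumina and ONT were read from the same RNA samples, so they repeat the sequencing and not the culture. On both platforms 16 members were called higher and 8 lower, none was called in opposite directions, 5 were called on Illumina alone (CCNB2, CCNA2, BUB1, CENPF and HMMR), 1 on ONT alone (CDK1) and 5 on neither. The folds had the same sign for 34 of 35 members, with Pearson r = 0.952 over the 35 genes. The same figures were not taken over all genes, of which 74.1% were called on Illumina and 62.7% on ONT. This agreement between platforms is therefore not shown to be particular to the members. An interaction term over the 12 libraries tested whether the line difference itself differed between platforms. It was called for 1 member of 35, CCNA2 (-0.61 ± 0.18, adjusted p = 0.0466), where 7.16% of all genes tested were called. That call was lost without any 1 of the H1975 replicates (adjusted p of 0.101 to 0.318) or HCC827 replicate 1 (0.127). Total count scaling gave 7 members, all more negative on ONT. Over all 29395 genes tested it called 697 more positive and 2661 more negative on ONT, so that direction is not particular to the members.

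**Figure D2:**
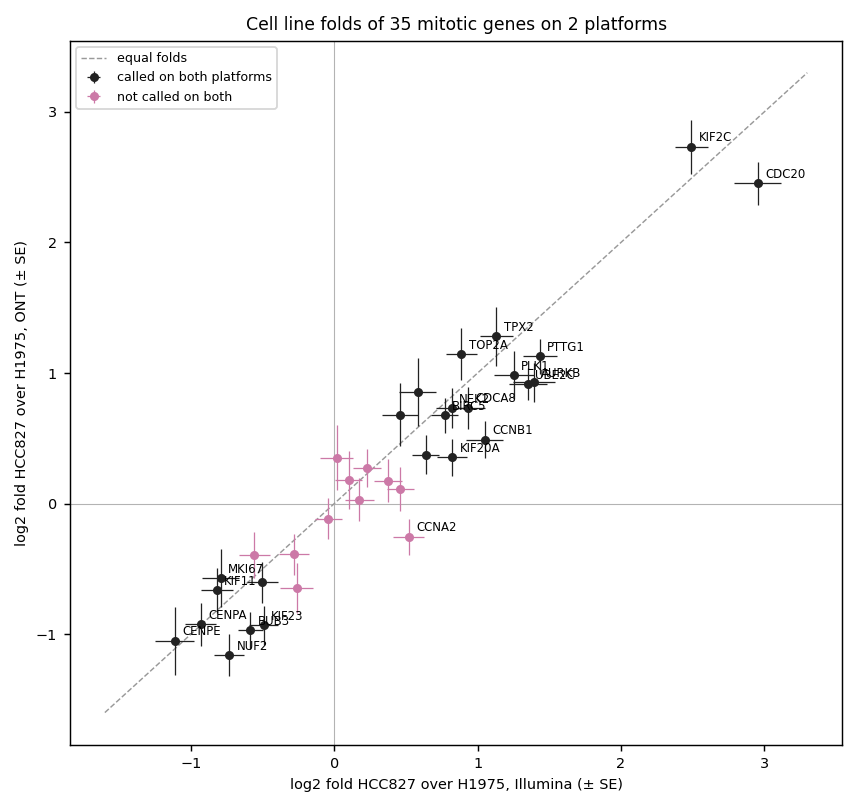
Log2 fold of HCC827 over H1975 on Illumina (x axis) and ONT (y axis) for the 35 mitotic genes, with standard errors as bars and a dashed line where the folds are equal. CDC20 and KIF2C stand apart at the upper right, black points are called on both platforms in the same direction, and CCNA2 lies below 0 on ONT alone.

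PacBio libraries held few mitotic counts, from 2 for UBE2C to 100 for TOP2A over all 6 libraries. TOP2A and TPX2 alone passed the filter on low counts, and the other 33 members were not tested. TOP2A had 14, 13 and 9 counts in H1975 and 26, 18 and 20 in HCC827, and TPX2 10, 9 and 9 against 19, 12 and 18. Both were higher in HCC827, by 0.95 ± 0.28 (adjusted p = 0.0339) and 0.93 ± 0.29 (adjusted p = 0.0433), where 22.9% of 901 genes tested were called and 11.4% were called higher. Some PacBio libraries were very close. Replicates 2 and 3 of H1975 differed by less than the sampling noise (mean chi-square per gene 0.55), as did replicates 1 and 2 of HCC827 (0.671), whereas other pairs of a line had 1.34 to 4.88. Counted as 1 sample each, they left no member called (TOP2A 0.80, adjusted p = 0.282, and TPX2 0.85, adjusted p = 0.258). Neither was called without any 1 of the 3 H1975 libraries or without HCC827 replicate 1 or 2 (adjusted p of 0.0614 to 0.221), and without HCC827 replicate 3 TOP2A was called (0.0244) and TPX2 was not (0.11).

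The untested members are given as counts. CDC20 had 6, 4 and 5 counts in H1975 and 12, 8 and 9 in HCC827, KIF2C 3, 3 and 1 against 11, 7 and 7, and MKI67 3, 4 and 4 against 1, 1 and 0. These counts lay on the same side as on Illumina. As shares of line totals, 14 of the 15 members with 20 or more PacBio counts went the Illumina way, and 17 of the 20 with fewer. The Illumina way is that under TMM scaling. With total count scaling the Illumina folds of BUB1B, MAD2L1, TTK and DLGAP5 turn, so these counts depend on the scaling. The 15 include PLK1, PRC1 and HMMR, whose counts are shared as described below. Such agreement was not counted over all genes. The members together took 0.217% to 0.262% of PacBio counts in H1975 and 0.333% to 0.364% in HCC827. In all 6 libraries PLK1 had the same counts as its overlapping genes ERN2 and ENSG00000261266 (26 in sum each), PRC1 the same as PRC1-AS1 (26), and HMMR the same as HMMR-AS1 (20), so these counts cannot be assigned to one gene. These overlapping genes lie on the opposite strand, so PacBio reads there were counted for both genes whatever their strand.

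Levels between genes were compared per kb of exon on Illumina (CPM per kb, mean ± SD, n = 3). In H1975 CENPA stood first (52.3 ± 1.71), with the overlap given above, followed by TPX2 (34.1 ± 2.96), TOP2A (33.7 ± 3.84) and CCNB1 (33.0 ± 2.72), which lay within their spread. In HCC827 CDC20 stood first (144 ± 37.6) after ranking 6 in H1975 (18.6 ± 1.79). TPX2 (74.8 ± 10.6), UBE2C (69.3 ± 13.8), CCNB1 (68.7 ± 13.6) and TOP2A (62.4 ± 3.09) followed within their spread. KIF2C moved from rank 30 (5.34 ± 0.311) to rank 7 (30.2 ± 4.21), and CENPE was the lowest in HCC827 (2.38 ± 0.531). The length used is that of all annotated exons of a gene. Mean ONT CPM, not divided by length, gave another order. In HCC827 PTTG1 (160 CPM) and UBE2C (155 CPM) stood above CDC20 (124 CPM) on ONT. In H1975 UBE2C (82.3 CPM) and PTTG1 (73.3 CPM) stood above CENPA (45.8 CPM) there.

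The platforms placed the members differently by length. Over the 35 genes, the log2 ratio of ONT to Illumina CPM had Pearson r = -0.647 with log2 exon length in H1975 and -0.635 in HCC827. Short UBE2C (1286 exon bases) was 2.37-fold higher on ONT in H1975 and PTTG1 3.46-fold higher, while MKI67 (12845 bases) was 26.4-fold lower. Input RNA, library chemistry and sequencer all differ between the platforms, and their parts cannot be told apart.

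**Figure D3:**
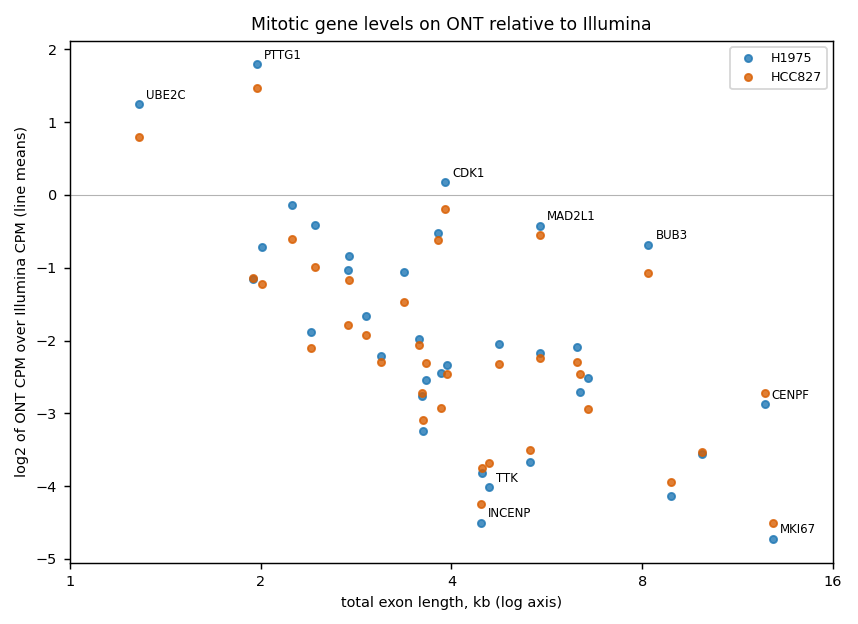
Log2 ratio of ONT CPM to Illumina CPM (y axis, line means) against total exon length in kb (log x axis) for the 35 mitotic genes in H1975 and HCC827. PTTG1 and UBE2C lie above 0 and the longest gene, MKI67, is lowest.

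Where the genes sit in the genome went with part of the pattern. For each member, the median log2 fold was taken over protein-coding genes within 5 Mb that are not members. CDC20 and KIF2C lie near each other on the short arm of chromosome 1 and share neighbours. On Illumina the 127 neighbours of CDC20 had a median log2 fold of 1.31, with 78% called higher, and the 116 of KIF2C 1.35, with 82.8% higher. The median of all protein-coding genes was -0.02, and 36.1% of all genes tested were called higher. Both members stood above their neighbours' median. Over the 35 genes, member fold and neighbour median had Pearson r = 0.666 on Illumina and 0.754 on ONT, and 0.461 and 0.581 over the 33 genes without CDC20 and KIF2C. The sign was the same for 21 of 35 members on Illumina and 22 of 35 on ONT, and the rest had the opposite sign. The same values were not taken for genes at large.

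Chromosome 10 carries CDK1, BUB3, KIF11 and MKI67, and all 4 had negative folds on both platforms, beside a median of -0.58 for the other 583 genes of that chromosome on Illumina and -0.56 on ONT. Chromosome 17 carries AURKB, BIRC5 and TOP2A, all 3 higher, beside a chromosome median of 0.33 on Illumina. Not every group followed its chromosome. AURKA, TPX2 and UBE2C on chromosome 20 were all higher beside a chromosome median of -0.01 on Illumina. Their neighbour medians there were -0.19 for AURKA, 0.34 for TPX2 and -0.10 for UBE2C, so TPX2 had the sign of its neighbours. CCNB2 on chromosome 15 had 0.46 with a neighbour median of -0.997. PLK1 (1.26) and CCNB1 (1.05) likewise lay above neighbour medians of -0.32 and -0.18. DNA copy number was not measured here, and its part in these folds was not tested.

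**Figure D4:**
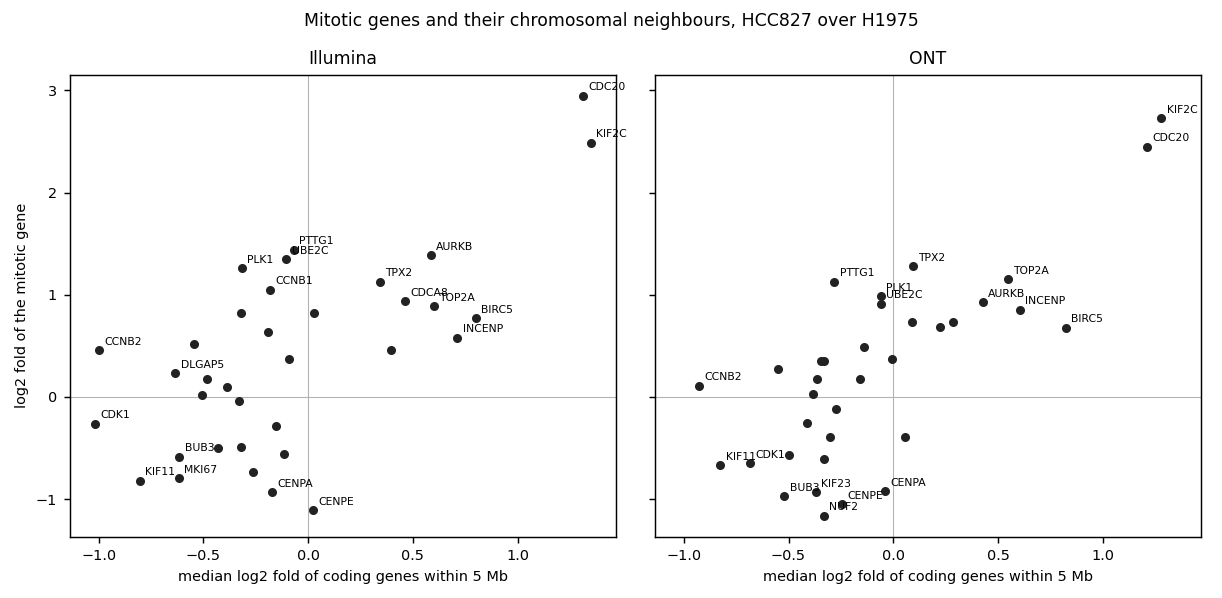
Log2 fold of each mitotic gene (y axis) against the median log2 fold of other protein-coding genes within 5 Mb (x axis), HCC827 over H1975, on Illumina (left) and ONT (right). CDC20 and KIF2C lie at the upper right of both panels, PTTG1, UBE2C and PLK1 are high beside neighbours near or below 0, and KIF11, BUB3 and MKI67 lie at the lower left.

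Some members share sequence with other genes. Of 35 members, 10 share exon bases with another gene: CCNA2, PLK1, BUB1B, CENPA, KIF20A, KIF23, KIF2C, NUF2, PRC1 and HMMR. By name, 12 have a copy in the annotation, a pseudogene that carries the member's symbol or, for PTTG1, PTTG2 and PTTG3P. How alike these sequences are was not measured. The 13 with neither were CCNB1, CDK1, TTK, BIRC5, CENPE, CENPF, KIF11, TOP2A, TPX2, NDC80, ESPL1, CDCA8 and INCENP. Of these, 7 were higher and 4 lower on each platform, beside all-gene shares of 74.1% called on Illumina and 62.7% on ONT. With total count scaling CCNB1, BIRC5, ESPL1, CDCA8 and INCENP were no longer called on ONT, nor ESPL1 and INCENP on Illumina. Genes with copies include UBE2C, whose copy UBE2CP5 held 4.63% of its Illumina counts, and PTTG1, whose copy PTTG3P held 11%.

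Other genes of the same processes divided between the lines, as genes at large did. The counts of each list are to be read beside all genes tested, of which 74.1% were called on Illumina (36.1% higher, 38% lower). On ONT 62.7% were called (31.1% higher, 31.6% lower). With total count scaling 6503 of 25711 genes were higher and 12773 lower on Illumina, and 4333 and 13787 of 27366 on ONT. Of 17 other APC/C subunits and regulators, 7 were higher and 3 lower on Illumina and 5 and 2 on ONT, led by the subunits ANAPC7 (1.00 ± 0.09 on Illumina), ANAPC5 (0.99 ± 0.10) and ANAPC15 (0.87 ± 0.10). With total count scaling 4 were higher and 8 lower on Illumina, and 0 and 10 on ONT. Of 16 condensin and cohesin genes, 6 were higher and 9 lower on Illumina and 6 and 6 on ONT, with the condensin subunits NCAPD2 (1.76 ± 0.15) and NCAPH2 (1.31 ± 0.14) higher and the cohesin subunit SMC3 lower (-1.16 ± 0.10). Total count scaling gave 4 and 10 on Illumina and 2 and 10 on ONT. Of 28 other kinetochore and checkpoint genes, 8 were higher and 11 lower on Illumina and 6 and 11 on ONT (3 and 16, and 1 and 19, with total count scaling). Among these PMF1 (2.12 ± 0.12), of the MIS12 complex, was higher, and ZWILCH (-1.39 ± 0.12) and KNL1 (-1.14 ± 0.12), of the outer kinetochore, were lower.

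Of 20 other spindle and cytokinesis genes, 9 were higher and 7 lower on Illumina and 6 and 4 on ONT (7 and 11, and 3 and 10, with total count scaling). BORA, an activator of AURKA, had 1.42 ± 0.12 on Illumina, the cytokinesis kinase CIT 1.30 ± 0.13 and the motor KIFC1 1.09 ± 0.12. Of 12 mitotic entry regulators, 5 were higher and 2 lower on Illumina, and of 11 tested on ONT 4 were higher and 0 lower (3 and 5, and 0 and 5, with total count scaling). They included the phosphatases CDC25C (1.55 ± 0.11) and CDC25B (0.88 ± 0.13), which activate CDK1, and CCNF (0.91 ± 0.13). Of 21 regulators of G2/M transcription, 7 were higher and 7 lower on Illumina and 9 and 6 on ONT (7 and 12, and 7 and 10, with total count scaling). FOXM1, an activator of G2/M genes, was higher (1.46 ± 0.14 on Illumina and 1.68 ± 0.25 on ONT), as was NFYC (1.82 ± 0.09 on Illumina), a subunit of the factor that binds the CCAAT box, and the repressor E2F7 was lower (-2.73 ± 0.12).

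Genes of S phase gave a mixed pattern as well. Of 34, 15 were higher and 10 lower on Illumina and 12 and 8 on ONT (11 and 14, and 5 and 16, with total count scaling). The licensing factors CDT1 (3.65 ± 0.16 on Illumina, 1.33 ± 0.32 on ONT) and ORC1 (2.63 ± 0.17 and 2.89 ± 0.19) were higher, and UHRF1, a DNA methylation factor, was lower (-1.96 ± 0.11). Across the lists, the named genes whose ONT call was lost with total count scaling were ANAPC7, ANAPC5, ANAPC15, NCAPD2, CDC25C, CCNF, CDC25B and CDT1. The lists' median log2 folds on Illumina ran from -0.35 (condensin and cohesin) to 0.21 (S phase), beside 0.46 for the mitotic genes.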

How the data were processed

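Gene counts were deposited by the authors, 1 table per library, as whole-number counts per gene with no normalization. The tools named in the submitters' processing notes are minimap2 2.17 and featureCounts, and the build is GRCh38. Settings, strand use and the annotation release: not given in the sources used here. PacBio counts, per the file headers, come from clustered sequences, and Illumina HCC827 replicate 3 carries the word repeat. Identifiers were matched without version to GENCODE release 44 (60357 of 60617 Illumina and 58207 of 58676 long-read genes), which gave symbols, coordinates and exon length. Spike-ins stayed out of library sizes and tests.

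Each platform was fitted whole with edgeR 4.0.16 in R 4.3.3 (TMM scaling, filterByExpr by line, glmQLFit with its robust option, glmQLFTest). P-values are two-sided and adjusted by Benjamini-Hochberg over all genes tested, with a threshold of 0.05. Standard errors are the absolute log2 fold divided by the square root of F. CPM use TMM effective sizes. The interaction was fitted on 12 libraries. Alternatives were DESeq2 1.42.0 and limma-voom 3.58.1, DESeq2's type of scaling, no low count filter, a replicate block, each library left out, close PacBio libraries as 1 sample and, added after seeing the data, total count scaling. Scripts were tested on simulated data. All 35 members are named. Of each pathway list, up to 3 genes are named, those with the largest absolute Illumina fold among genes called the same way on Illumina and ONT. The members and lists were chosen with earlier results of these data known.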

Additional observations from a re-analysis of the deposited data

Results flagged for a closer look

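CCNA2, cyclin A2, had a line difference that differed between the deep platforms by an interaction term over 12 libraries. The ONT log2 fold lay 0.61 below the Illumina fold (interaction -0.607 ± 0.18, edgeR adjusted p = 0.0466), with all 3 HCC827 libraries higher on Illumina and all 3 lower on ONT. Across the 12 alternatives the interaction ran from -0.971 to -0.5045, and its adjusted p from 0.00273 to 0.318. It was not called without the low count filter (adjusted p = 0.0922), nor without H1975 replicate 1, 2 or 3 or HCC827 replicate 1 (adjusted p of 0.101, 0.318, 0.202 and 0.127).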

How the results depend on the processing

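Total count scaling, chosen after seeing the data, gave 7 members higher and 16 lower on ONT, 1 called (1 higher) on PacBio and 7 with a differing line effect between platforms. Over all genes this scaling gave 4333 higher and 13787 lower of 27366 on ONT. For the interaction it gave 697 more positive and 2661 more negative on ONT, of 29395 genes. It turned BUB1B (-0.25), MAD2L1 (-0.18), TTK (-0.34) and DLGAP5 (-0.12) on Illumina, and CCNB1 (-0.066), CCNB2 (-0.45), AURKA (-0.18), BUB1 (-0.39), BUB1B (-0.35), MAD2L1 (-0.54), TTK (-0.18), KIF20A (-0.20) and DLGAP5 (-0.27) on ONT. It ends the Illumina calls of CCNB2, CCNA2, BUB1, ESPL1 and INCENP and 9 higher calls on ONT, those of PLK1, BIRC5, ESPL1, NEK2, CDCA8, INCENP, CCNB1, AURKA and KIF20A. Signs of members near 0 also turned for TTK on Illumina with DESeq2 (-0.0045) and for single libraries left out: TTK (range -0.085 to 0.11) and PRC1 (-0.096 to 0.028) on Illumina, and CCNB2 (-0.032 to 0.24), MAD2L1 (-0.069 to 0.19) and BUB1B (-0.076 to 0.34) on ONT.

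On PacBio 1 member was called, higher, with DESeq2's type of scaling, without the low count filter (KIF2C, 1.76, adjusted p = 0.0252) and with limma-voom, and 0 with DESeq2, with the replicate block and with close libraries as 1 sample. Leaving out each library gave 0 to 1. Over all genes PacBio gave 49 higher and 101 lower of 6770 with DESeq2. The replicate block gave 26 and 24 of 901 there, and close libraries as 1 sample 29 and 34 of 1885. Leaving out a PacBio library gave from 11 and 13 of 944 (H1975 replicate 2) to 178 and 158 of 1325 (HCC827 replicate 3). The interaction calls were 0 without the filter, and 0 to 1 with single libraries left out. Leaving out a library gave 29 to 30 calls on Illumina and 20 to 26 on ONT. Over all genes, ONT gave 7398 higher and 7555 lower of 28073 without H1975 replicate 3. Without HCC827 replicate 2 it gave 9235 and 9420 of 28066. Illumina ran from 8820 and 9195 of 26198 (without H1975 replicate 2) to 9367 and 9993 of 26396 (without HCC827 replicate 1). The members' counts are to be read beside these. The replicate numbers pair no samples of different lines (same-number correlations of -0.54 to 0.24), and the replicate block gave 30 calls on Illumina, adding CDK1 (adjusted p = 0.0371), and 22 on ONT, without AURKA (0.0733), KIF20A (0.109) and ESPL1 (0.0502). Over all genes the replicate block called 9148 higher and 9645 lower of 25711 on Illumina, and 8020 and 8300 of 27366 on ONT. The RNA sample as a replicate block in the interaction left CCNA2 called (-0.61, adjusted p = 0.0134). The cause of these changes was not tested. PacBio depth limits what can be tested, since 33 members fell below the filter.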
